A study of Drosophila melanogaster with 6 samples.

Results

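The cytoplasmic ribosomal protein genes of Drosophila melanogaster were followed in RNA from pooled brains of wandering larvae. Members were all genes whose CG number carries a RefSeq symbol that starts with RpL, RpS or RpLP and a digit, which leaves out the mitochondrial ribosome. All 92 genes of that kind were present among the 14012 genes of the tables, with 167 of 21081 transcripts. Of these genes, 80 were taken as core members, meant as the main copies of the standard ribosome: 32 of the small subunit, 45 of the large subunit and the 3 stalk proteins. This class was set after the values were seen, and RpS14b and RpL34a, second copies with abundant messages, were placed in it. The other members were 9 second copies (paralogues) and RpL7-like, RpL24-like and RpLP0-like, 3 genes related to assembly factors known from yeast. RpL22-like and RpS28-like were counted among the second copies. The sta and Rack1 genes also encode proteins of the small subunit, but their symbols lie outside the rule.

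Control larvae (w, E347-GAL4/w1118;+;+) had the E347-GAL4 driver alone, whose GAL4 turns on any UAS-linked transgene in the cells the series names E347 neurons. Activation larvae (w, E347-GAL4/yw;+;UAS-NachBac) also expressed NachBac, a sodium channel from bacteria used to raise the excitability of neurons. Ablation larvae had w, E347-GAL4 over a yw,UAS-ShiDN chromosome, with a further UAS-ShiDN insertion over +, and so expressed ShiDN, a dominant-negative dynamin. The transgenes themselves were not analysed here. Each of the 3 groups had 2 samples, each a pool of 86 to 100 brains, and the rearing food held 35 g yeast per liter at 25 °C. Both manipulated groups carry a yw chromosome that the controls lack, so cross and manipulation cannot be told apart in their differences from control. No age beyond the wandering stage was given, and the labels do not say whether pools came from separate crosses.

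The eukaryotic ribosome joins a small subunit, which reads the messenger RNA, to a large subunit, which forms the peptide bond. Its proteins are needed in near equal numbers, and their messenger RNAs are among the most abundant of any growing cell. In flies, loss of 1 copy of many of these genes gives the Minute phenotype of slow development and thin bristles, and in the larval brain dividing neuroblasts draw heavily on ribosome synthesis.

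Each gene has 1 authors' group value per table, in FPKM, which scales fragments to transcript length and to the size of the library, and no value per sample. No spread between replicates can therefore stand beside a value, the depth is unknown, and the only tests are the p and q (p adjusted over all tested transcripts) that the authors deposited from Cuffdiff. These p-values rest on 2 samples a group, whose spread may be technical. The Cuffdiff settings were not found, so what else enters the p-values is unknown. A gene sum adds up every transcript of a gene, and changes are given on the log2(FPKM + 1) scale, which understates the change of low genes. In a bulk brain sample, fewer cells of a type and less RNA per cell cannot be told apart.

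The tissue label was checked against marker lists. All 5 neuron, 4 glia and 4 neuroblast markers were above 0 in every group. Neuron markers summed to 281 FPKM in control against 326 in ablation in their shared table, and to 273 FPKM in control against 305 in activation. Markers of other tissues moved between groups: the 5 midgut markers summed to 7.31 FPKM in control against 1173 in ablation, where all 5 were higher, and to 2.27 FPKM in activation. There betaTry, LysB and LysD were listed at 0, while in control only betaTry was. The 4 fat body markers summed to 103 FPKM in control against 241 in ablation, and to 100.3 FPKM in control against 23.6 in activation. Neuroblast markers, of the dividing stem cells, summed to 238 FPKM in control against 241 in ablation, and to 232 FPKM in control against 294 in activation, where all 4 were higher. Glia markers summed to 493 FPKM and 631 FPKM in control and ablation, and to 480 FPKM and 414 FPKM in control and activation. Salivary gland markers summed to 241 FPKM and 153 FPKM in control and ablation, and to 235 FPKM and 57.5 FPKM in control and activation. Muscle markers summed to 53.2 FPKM and 62.6 FPKM in control and ablation, and to 51.8 FPKM and 27.6 FPKM in control and activation. Haemocyte markers summed to 27.1 FPKM and 26.3 FPKM, and to 26.3 FPKM and 16.2 FPKM. The part of all these tissues in the ribosomal protein values was not tested.

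Ribosomal protein messages made up nearly the same share of all FPKM in the 3 groups. Summed over the members, this share was 39.2% in control and 39.4% in ablation, and 39.2% in control and 39.4% in activation. The table of activation and ablation gave 39.4% for each. The small-subunit genes took 16.4% in control, 15.6% in ablation and 15.7% in activation, and the large-subunit genes with the stalk took 22.8%, 23.8% and 23.6%. RpL41 alone, which encodes a basic peptide of 25 residues and is the shortest member protein, took 2.33% in control, 4.25% in ablation and 3.34% in activation. RpL41 was also taken out of the member sum but kept in the total of all FPKM. The difference from control was then -1.74 percentage points in ablation and -0.866 percentage points in activation. The near equality of the totals thus rests in part on that gene, whose own higher share in the total enters these differences. RpL41 has a transcript of 320 bases in the BDGP6 annotation and lies in a locus that holds 4 genes. Its deposited Cuffdiff p was 0.109 in ablation and 0.241 in activation.

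Levels of the core members spanned a wide range although FPKM is scaled to length. In control, in the table with ablation, they ran from 560 FPKM for RpL39, a protein of the nascent chain exit tunnel, to 22161 FPKM for RpL41, with a median of 4359 FPKM. The next highest gene sums in control were 13980 FPKM for RpL29, 9536 FPKM for RpL12, 9049 FPKM for RpS29, 8893 FPKM for RpL14 and 8621 FPKM for RpS7. Of the 128 genes that reached 1000 FPKM in control, 78 were members. The 25th and 75th percentiles of the core lay at 2802 and 5716 FPKM in control and at 3021 and 4861 FPKM in ablation. In the table with activation they lay at 2727 and 5563 FPKM in control and at 3355 and 5094 FPKM in activation. The ratio of these percentiles was thus 2.04 in control, 1.61 in ablation and 1.52 in activation, and the standard deviation of the log2 levels across the 80 genes was 0.93, 0.84 and 0.75. Fewer core genes lay under 2000 FPKM in activation (5) than in control (12) or ablation (10). These figures describe 1 value per group and were not tested.

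**Figure D1:**
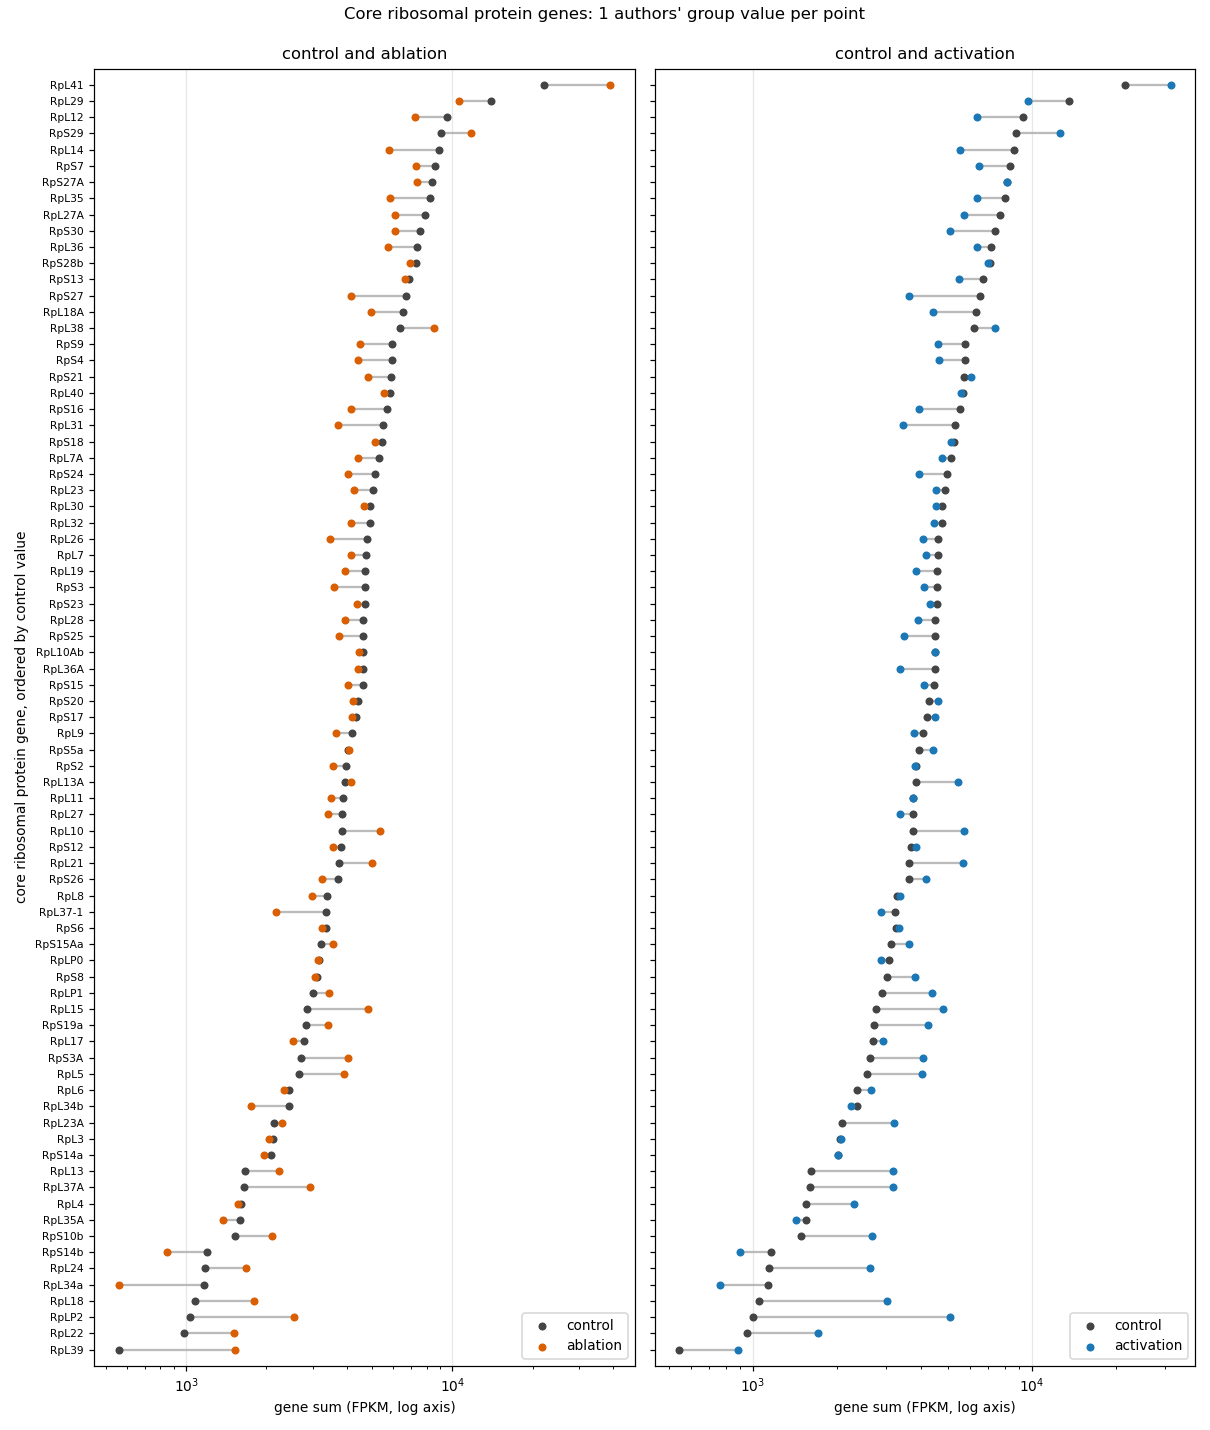
Gene sums in FPKM (log axis) of the core ribosomal protein genes, with 1 of the 80 left out, ordered by their control value, in the tables of control with ablation (left) and control with activation (right). Each point is 1 authors' group value, and the line joins both groups. Many genes at the top of the order lie lower in the manipulated group and several at the foot lie higher, such as RpLP2 at 1007 FPKM in control against 5110 in activation. The control value enters both the order and the differences, and both panels share the control samples, so such a pattern is no separate result. It was not tested.

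Few member genes differed much between control and ablation, and 71 of the 86 with a mean of at least 10 FPKM stayed within 1.5 times. RpL39 was at 560 FPKM in control against 1530 in ablation, 2.73 times the control value. RpLP2, 1 of the acidic stalk proteins that bring elongation factors to the ribosome, was at 1035 FPKM and 2549 FPKM. RpL37A, a zinc-binding protein of the large subunit, was at 1647 FPKM and 2925 FPKM, and RpL41 was at 22161 FPKM and 39102 FPKM. At the other end RpL34a, a large-subunit protein with a second copy, was at 1168 FPKM in control against 558 in ablation. RpS27, a zinc-binding protein of the small subunit, was at 6707 FPKM and 4162 FPKM, and RpL37-1 was at 3341 FPKM and 2164 FPKM.

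Of the member transcripts, 1 of 100 tested ones passed at q of at most 0.05 in the authors' deposited table, against a background of 0.154% of all tested transcripts. That transcript was RpS3A RB, which had 442 FPKM in control while ablation listed it at 0 (the authors' deposited table: p = 5e-05, q = 0.0324). Members at an unadjusted p under 0.05 numbered 3 of 100, where the background was 2.05%. The others were RpL39 RA (the authors' deposited table: p = 0.0127) and RpL37A RA (p = 0.0262), each with q = 0.974. So 2 member transcripts were higher in ablation, with a background of 1.31%, and 1 was lower, with a background of 0.737%. RpL41 RA had p = 0.109 and RpS27 RA p = 0.119 in the authors' deposited table. A normal p taken from the deposited statistic, which is missing where a group is at 0, gave RpL39 RA an adjusted p of 3.43e-06 and passed no other member. The deposited p-values do not follow such normal scores: RpL39 RA had a statistic of 6.18 but a deposited Cuffdiff p of 0.0127. The adjusted p is therefore no ground for a call.

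Of the 80 core genes 23 were higher and 57 lower in ablation, and the median log2 change was -0.10. Core genes of the small subunit were higher in 7 of 32 cases and those of the large subunit with the stalk in 16 of 48. Of 51 non-member genes with a mean of at least 1000 FPKM, 20 were higher and 31 lower, with a median of -0.07, and the difference from the core was not tested. Over all 8512 genes with a tested transcript the median was 0.10, and over the 76 tested members it was -0.12. Among the 86 members with a mean of at least 10 FPKM, 10 gene sums were at least 1.5 times higher in ablation, or 11.6%, with a background of 16.3%. Another 5 were at least 1.5 times lower, or 5.81%, with a background of 12.1%. With both groups rescaled to the same total, 28 core genes were higher and 52 lower.

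Between control and activation 65 of 86 members stayed within 1.5 times, and the largest ratios above control were those of RpLP2 and RpL18. RpL18, a large-subunit protein, was at 1051 FPKM in control against 3036 in activation, 2.89 times the control value. RpLP2 was at 1007 FPKM in control against 5110 in activation, a ratio of 5.08, but Cuffdiff left it untested. RpL24, which forms a bridge between the subunits, was at 1147 FPKM and 2628 FPKM, and RpL37A was at 1603 FPKM and 3197 FPKM. Each of these 4 genes had a control value under the lower quartile of the core, but that value also enters the ratios that they were named for. On the other side RpS27 was at 6527 FPKM in control against 3636 in activation, RpL14 at 8652 FPKM and 5530 FPKM, and RpL31 at 5334 FPKM and 3462 FPKM.

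Cuffdiff called 0 of 102 tested member transcripts in activation at q of at most 0.05, and the background was 0.0%. At an unadjusted p under 0.05 there were 10 member transcripts, or 9.80%, where the background was 3.05%. Of these 8 were higher in activation, with a background of 1.84%, and 2 were lower, with a background of 1.21%. RpL18 RA and RpS3A RB had the smallest deposited p of 5e-05 with q = 0.0537 in the authors' deposited table. The authors' deposited table gave RpL24 RA p = 0.0008 with q = 0.556, and RpL37A RA p = 0.00255 with q = 0.797. RpS10b RC (p = 0.0138), RpL22 RA (p = 0.0159) and RpL15 RA (p = 0.0442) followed, each with q = 0.915 in the authors' deposited table. RpS10b was at 1489 FPKM in control against 2679 in activation, RpL22 at 954 FPKM and 1711 FPKM, and RpL15 at 2764 FPKM and 4803 FPKM. The other 3 were minor transcripts with a group at 0: RpS25 RA reached 39.4 FPKM in activation, RpL7A RA reached 3.43 FPKM there, and RpS29 RC was at 3.55 FPKM in control.

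As deposited, the core as a whole was split nearly evenly in activation. Of the 80 genes 37 were higher and 43 lower, with a median log2 change of -0.02, a 25th percentile of -0.21 and a 75th percentile of 0.38. With both groups rescaled to the same total, 34 core genes were higher and 46 lower. Centred on the median of genes with a mean of at least 1 FPKM, 30 were higher and 50 lower. The 50 other genes with a mean of at least 1000 FPKM had 25 higher and 25 lower and a median of -0.00. The tested members had a median of -0.01 and all 8514 tested genes a median of 0.10. Of the 86 members with a mean of at least 10 FPKM, 17 were at least 1.5 times higher, or 19.8%, with a background of 15.8%. Those at least 1.5 times lower numbered 4, or 4.65%, with a background of 12.4%. Within the core, 13 of 48 large-subunit and stalk genes were at least 1.5 times higher, against 3 of 32 small-subunit genes, a difference that was not tested.

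Set directly against each other, activation and ablation had 80 of 85 members within 1.5 times. RpLP2 was at 5146 FPKM in activation against 2519 in ablation, RpL18 at 3059 FPKM and 1767 FPKM, RpL24 at 2647 FPKM and 1655 FPKM, and RpL4 at 2320 FPKM and 1544 FPKM. RpL39 was at 893 FPKM in activation against 1506 in ablation, the highest ratio of ablation to activation among members with a mean of at least 10 FPKM. RpS15Ab was at 65.8 FPKM and 90.8 FPKM, RpL36A at 3385 FPKM and 4365 FPKM, and RpL41 at 31712 FPKM and 38437 FPKM. As deposited, core genes were mostly lower in ablation on 2L (13 of 17), 3L (11 of 13) and 3R (13 of 17). On X all 14 were lower, by a median of -0.16 log2, and on 2R 8 of 17 were. Other genes with a mean of at least 10 FPKM were lower in 422 of 1027 cases on X, where their median was 0.06. Their counts were 570 of 1072 on 2L, 621 of 1238 on 3L, 725 of 1528 on 3R and 607 of 1253 on 2R. The core split depends on scaling: 61 of 80 were lower as deposited and 47 after rescaling to the same total. Of other genes with a mean of at least 1000 FPKM, 38 of 52 were lower. Differences by arm were not tested.

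Cuffdiff called 0 of 103 tested member transcripts in this comparison, where the background was 0.37%. At an unadjusted p under 0.05 there were 6, or 5.83%, with a background of 3.21%. Higher in ablation were RpL39 RA (the authors' deposited table: p = 0.0139), RpL34a RA (p = 0.0165) and RpS29 RC (p = 0.0497), with a background of 1.53%. Lower were RpL18 RA (the authors' deposited table: p = 0.0154), RpL24 RA (p = 0.0351) and RpS15Aa RD (p = 0.0367), with a background of 1.68%. The q was at least 0.948 for each. RpL34a RA was at 0.0203 FPKM in activation against 228 in ablation, while the RpL34a gene sum was lower in ablation, at 770 FPKM and 550 FPKM. RpS29 RC was listed at 0 in activation and 5.17 FPKM in ablation, while the RpS29 gene sum was at 12752 FPKM and 11559 FPKM. RpS15Aa RD was at 0.895 FPKM in activation and listed at 0 in ablation. Of the core genes 19 were higher and 61 lower in ablation, with a median of -0.10, and 52 other genes of at least 1000 FPKM had a median of -0.11. With both groups rescaled to the same total, 33 core genes were higher and 47 lower. Of 85 members with a mean of at least 10 FPKM, 1 was at least 1.5 times higher (background 4.31%) and 4 were at least 1.5 times lower (background 3.16%).

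**Figure D2:**
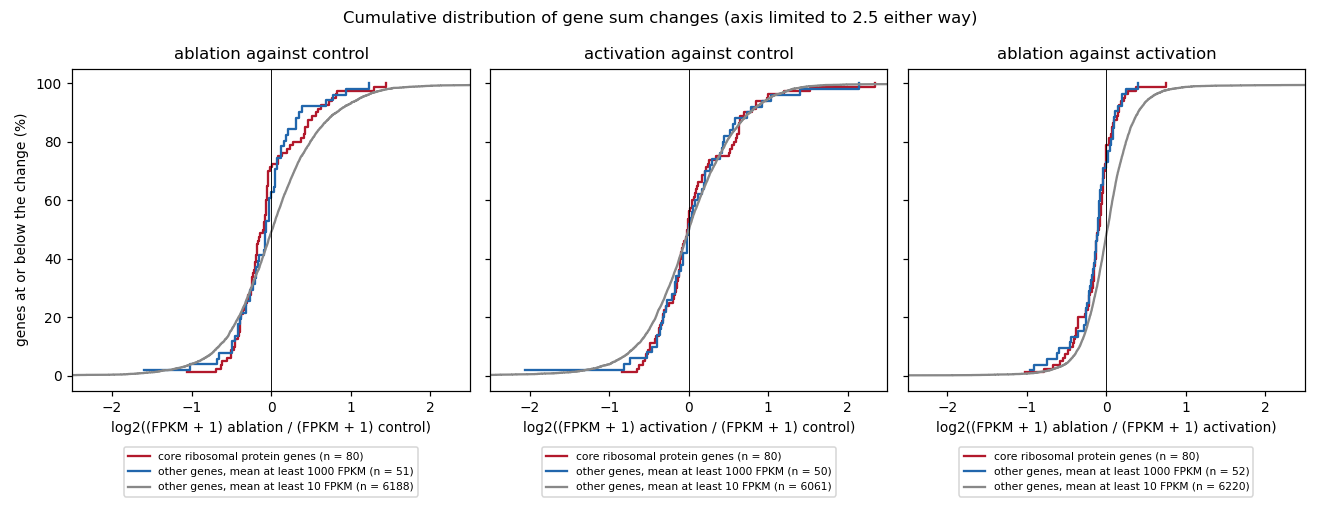
Cumulative share of genes (y axis, percent) at or below each log2 change of the gene sum (x axis) in the 3 comparisons. The line of the 80 core ribosomal protein genes runs close to that of other genes with a mean of at least 1000 FPKM in each panel, with medians of -0.10 and -0.07 in ablation against control.

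The 3 stalk genes differed among themselves. RpLP0, which anchors the stalk to the ribosome, was at 3157 FPKM in control against 3117 in ablation, and at 3073 FPKM in control against 2874 in activation. RpLP1, which binds RpLP0 as a dimer with RpLP2, was at 2990 FPKM in control against 3433 in ablation, and at 2908 FPKM in control against 4395 in activation (the authors' deposited table: p = 0.124). RpLP2 had the lowest control value of these genes and the highest value in activation. RpS6, the small-subunit protein that S6 kinase phosphorylates in the TOR pathway, was nearly level in all groups, at 3340 FPKM in control against 3241 in ablation, and 3253 FPKM in control against 3338 in activation.

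Several abundant members have no test at all. Cuffdiff gave 16 member transcripts the status LOWDATA in each table, and 9 core genes had no tested transcript in control against ablation, 8 in control against activation and 7 in activation against ablation. In control against ablation these were RpL7A, RpL13, RpL19, RpL29, RpLP2, RpS13, RpS15Aa, RpS18 and RpS30, with control values from 1035 FPKM for RpLP2 to 13980 FPKM for RpL29. Their absence from the calls therefore says nothing about their change. RpL13 was at 1616 FPKM in control against 3188 in activation, the largest ratio after RpLP2 among the 8 core genes untested there. RpL7A and RpL31 were tested in activation through minor transcripts, while the main transcript of each was untested. RpL3, RpL12, RpS7, RpS9 and RpS12 also had a LOWDATA transcript beside tested ones there, so their tests do not cover the whole gene sum. With activation set against ablation, the untested RpL12 RA held 98.3% of the gene sum in activation.

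Among the 44 members with several transcripts, RpS21, RpL34a and RpS3A each had a transcript whose share of the gene sum shifted by over 20 percentage points in at least 1 comparison. RpS21, a small-subunit protein, was split in control between RA with 38.9% of the gene sum and RE with 60.5%. In ablation RA held 97.5% and RE 1.29%, and in activation RA held 97.4% and RE 0.402%. RE was at 3566 FPKM in control against 62.2 in ablation (the authors' deposited table: p = 0.112), and at 3472 FPKM and 24.3 FPKM in control and activation (p = 0.246). RpL34a RA held 5.28% in control, 41.3% in ablation and 0.00346% in activation. Transcripts of 1 gene can share reads, and the rule by which the authors assigned such reads is not known here. The shares within a gene are therefore uncertain.

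RpS3A, a small-subunit protein near the exit of the messenger RNA, is the member whose transcript was called. Its RB transcript held 16.4% of the gene sum in control and was listed at 0 in both manipulated groups. The RD transcript was at 1766 FPKM in control against 3171 in ablation, and at 1723 FPKM in control against 3575 in activation (the authors' deposited tables: p = 0.167 and p = 0.0787). The RA transcript was at 488 FPKM and 897 FPKM in control and ablation, and at 476 FPKM and 505 FPKM in control and activation. The gene sum was thus higher in each manipulated group, at 1.51 times and 1.55 times control, although the called transcript was lower. How reads were divided among RA, RB and RD is uncertain, so the value of 0 for RB is too.

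**Figure D3:**
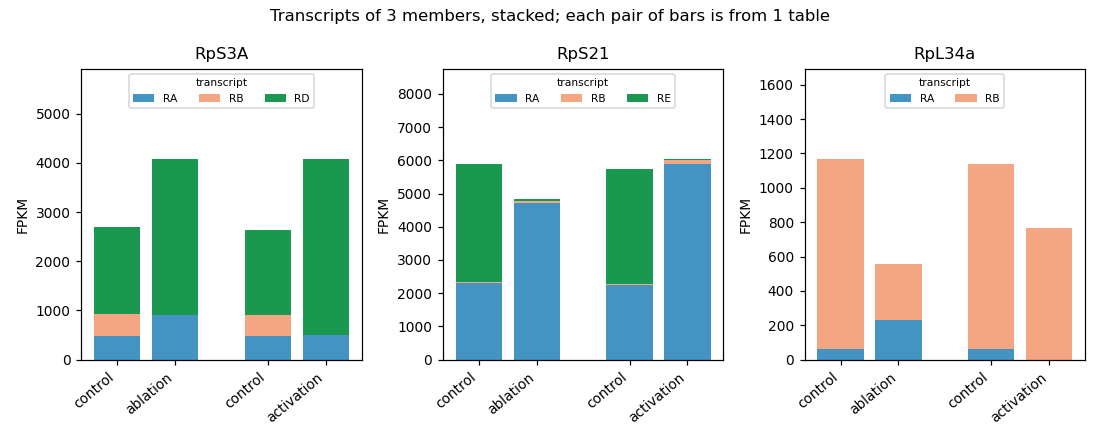
Stacked FPKM of the transcripts of RpS3A, RpS21 and RpL34a, with 1 pair of bars per table (control with ablation, control with activation). RpS3A RB (442 FPKM in control) and most of RpS21 RE (3566 FPKM in control) stand out in the control bars, while the RpS3A bar is taller in ablation and activation.

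Second copies outside the core were low in the brain. The core was set after the values were seen and holds abundant copies such as RpS14b and RpL34a. The low level of the rest is therefore no result about second copies as a class. RpL10Aa, RpL22-like, RpS28a and RpS28-like were listed at 0 in every group of every table. RpL22-like is known in flies as a testis-enriched partner of RpL22. RpS19b stayed under 1 FPKM, and RpL37-2 was listed at 0 in control and ablation and reached 2.54 FPKM in activation. RpS5b, a copy of RpS5a known for its role in the ovary, was at 12.7 FPKM in control against 27.7 in ablation, and at 12.4 FPKM in control against 29.8 in activation (the authors' deposited tables: p = 0.328 and p = 0.234). RpS5a was at 4066 FPKM in control, 4092 FPKM in ablation and, in its own table, 4442 FPKM in activation. RpS10a was listed at 0 in ablation, where control had 33.4 FPKM (the authors' deposited table: p = 0.208), and at 32.4 FPKM in control against 2.02 in activation (p = 0.464). The 5 germline and testis markers summed to 8.07 FPKM in control against 4.12 in ablation, and to 7.85 FPKM in control against 2.96 in activation, and their part in these values was not tested. Of them aly was listed at 0 in all groups, topi in both manipulated groups, and dj in control and ablation.

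In 2 families both copies were abundant. RpS14a and RpS14b, neighbours on the X with proteins of 151 residues each, were at 2075 FPKM and 1193 FPKM in control and at 1966 FPKM and 844 FPKM in ablation. RpL34b and RpL34a were at 2432 FPKM and 1168 FPKM in control and at 1754 FPKM and 558 FPKM in ablation. Such copies can share reads, and how the authors divided these is not given in the sources used here, so the split within each pair is uncertain. Of the genes related to assembly factors, RpL24-like was at 314 FPKM in control against 279 in ablation, RpL7-like at 146 FPKM and 209 FPKM, and RpLP0-like at 65.5 FPKM and 52.1 FPKM.

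**Figure D4:**
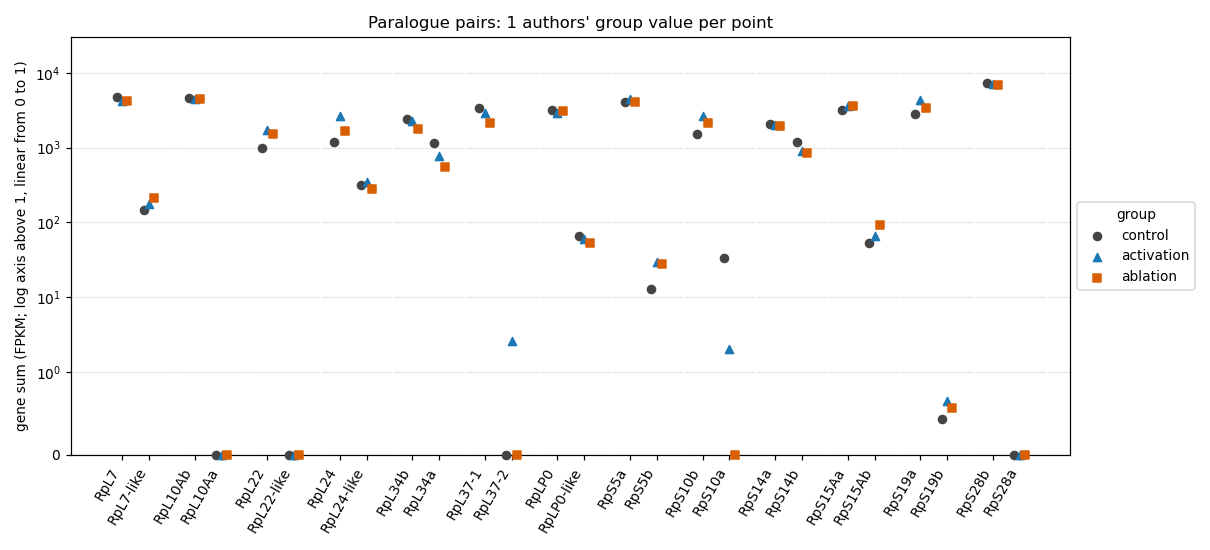
Gene sums in FPKM of 13 paralogue pairs (log axis above 1 FPKM, linear below), with control and ablation from their shared table and activation from its table with control. RpL10Aa, RpL22-like and RpS28a lie at 0 in all groups, while RpS10a is at 33.4 FPKM in control and 0 in ablation.

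Member genes are spread over the genome, with 14 core genes on X, 17 each on 2L, 2R and 3R, 13 on 3L, and 1 each on 3LHet and 4 in dm3. In dm3, RpL18 (CG8615) lies on 3L from 7231642 to 7234449 in a locus shared with 1 other gene, RpL24 (CG9282) on 2L from 13394119 to 13395115, RpL37A (CG5827) on 2L from 5071003 to 5072055, RpL39 (CG3997) on 2R from 19949373 to 19949952, and RpLP2 (CG4918) on 2R from 12473599 to 12474237. RpS3A (CG2168) lies on chromosome 4 from 86745 to 87863. Loci that also hold another gene were found for 14 core members, whose reads may overlap with it. In the BDGP6 annotation, 28 of 80 core genes, or 35.0%, hold snoRNA genes within their span on the same strand, against 0.601% of all protein-coding genes. RpS5a holds 14 and RpS7 holds 7.

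Position went with the change for a small group of members, which was singled out after its values were seen. RpS3A, on chromosome 4, had a log2 change of 0.59 in ablation and 0.63 in activation. The other chromosome 4 genes with a mean of at least 10 FPKM had medians of 0.55 in ablation, with 52 of 61 higher, and 0.73 in activation, with 57 of 62 higher. RpL5, RpL15, RpL21 and RpL38 lie on the 3LHet scaffold or within 1 Mb of the innermost gene of an arm, next to the heterochromatin around the centromere. All 4 had higher values in ablation, with changes from 0.42 to 0.77, and in activation, with changes from 0.25 to 0.80. The 147 other genes placed there had a median of 0.23 in ablation, with 101 higher, and of 0.34 in activation, with 96 higher. Core members over 2 Mb from the inner end of an arm had medians of -0.15 in ablation, with 16 of 72 higher, and -0.05 in activation, with 30 of 72 higher. Other genes there had medians of -0.00 in ablation, with 2888 of 5783 higher, and -0.01 in activation, with 2775 of 5663 higher. Both comparisons share the control samples. With ablation set against activation, RpS3A changed by -0.04 and the other chromosome 4 genes by a median of -0.16, with 14 of 63 higher. Why chromosome 4 genes differ between the groups was not tested. A window of 2 Mb adds RpL10, RpL13A and RpL35A, and 6 of the 7 members then had higher values in each manipulated group, with RpL35A the exception. Other genes in this wider window had smaller medians than within 1 Mb. These were 0.14 in ablation, with 211 of 344 higher, and 0.19 in activation, with 204 of 336 higher.

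**Figure D5:**
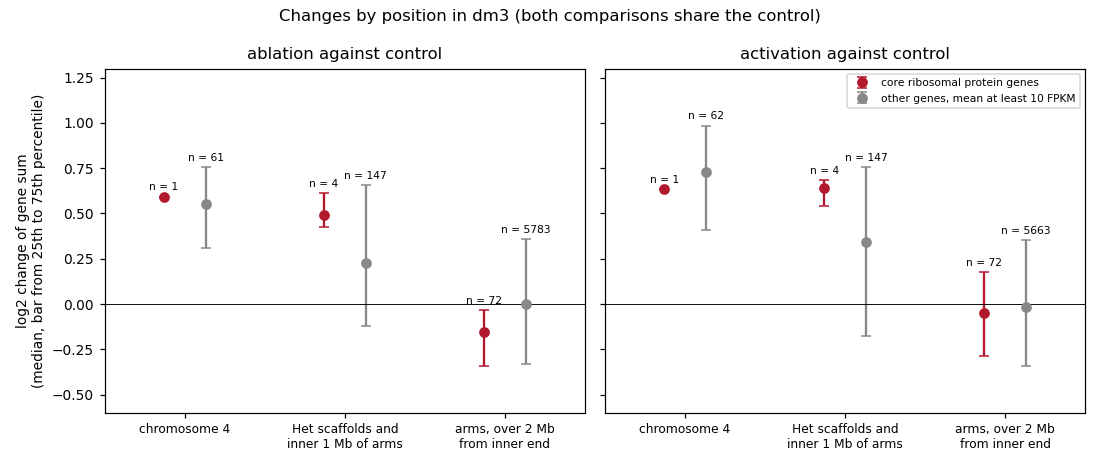
Median log2 change of gene sums by position in dm3 (points, with bars from the 25th to the 75th percentile) for core ribosomal protein genes and for other genes with a mean of at least 10 FPKM. RpS3A at 0.59 and 0.63 lies near the chromosome 4 medians of 0.55 and 0.73, while the 72 members away from the inner ends lie at -0.15 and -0.05.

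Length went weakly with level. Across the 80 core genes, which are not independent replicates, the rank correlation of the control gene sum with transcript length in BDGP6 was -0.31, and that of the change with length was 0.21 in ablation and 0.29 in activation. Core transcripts had a median length of 858 bases in BDGP6, from 288 for RpL39 to 3835 for RpL5. These need not be the transcript lengths behind the FPKM values. RpL5 spans 22427515 to 22429419 in dm3, which is shorter than its BDGP6 transcript. The correlations with length are therefore uncertain. The shared features of these points are the libraries, the length scaling of FPKM and the 1 value per group.

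Of the other genes around the ribosome, no transcript passed at q of at most 0.05. The small-subunit protein RpSA, encoded by sta, was at 2931 FPKM in control against 3645 in ablation, and at 2854 FPKM in control against 4256 in activation. Rack1, a signalling scaffold on the small subunit, was at 3203 FPKM and 2568 FPKM in control and ablation, and at 3118 FPKM and 2776 FPKM in control and activation. Of 37 translation factors 19 were higher in ablation and 22 in activation, with medians of 0.00 and 0.08. Cuffdiff called 0 of their 64 and 66 tested transcripts, and 2 and 3 had an unadjusted p under 0.05, all higher. These are 3.13% and 4.55% of the tested transcripts, where the backgrounds were 2.05% and 3.05%. They included eIF1 RA, of the start codon scanning machinery, at 334 FPKM in control against 653 in activation (the authors' deposited table: p = 0.0093, q = 0.915). Also counted were eIF5 RG, in both comparisons, and eIF3a RB, in activation, each listed at 0 in control. Between control and ablation there was also eEF5 RB, of the factor that eases proline-rich synthesis, at 1913 FPKM in control against 3272 in ablation (the authors' deposited table: p = 0.0495, q = 0.974).

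Of 26 ribosome biogenesis genes 14 were higher in ablation and 15 in activation, with medians of 0.04 and 0.05. Cuffdiff called 0 of their 30 tested transcripts in either comparison, with 0 and 1 at an unadjusted p under 0.05. That transcript was Tif-IA RA, of an RNA polymerase I initiation factor, at 50.0 FPKM in control against 95.8 in activation (the authors' deposited table: p = 0.0156, q = 0.915). The catalytic polymerase I subunit Polr1A was at 22.7 FPKM in control against 14.4 in ablation, and at 22.1 FPKM in control against 14.2 in activation. The 71 mitochondrial ribosomal protein genes had medians of 0.11 in ablation, with 42 higher, and -0.12 in activation, with 31 higher. Cuffdiff called 0 of their 73 tested transcripts in each of these comparisons, and 0 had an unadjusted p under 0.05. With activation set against ablation, 8 of 37 translation factors, 12 of 26 biogenesis genes and 50 of 71 mitochondrial genes had higher values in ablation. Cuffdiff called 0 of their 70, 31 and 72 tested transcripts there, with 0 at an unadjusted p under 0.05.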

How the data were processed

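RNA-seq values of 6 samples in 3 groups were used as the authors' group values. TopHat2, Cufflinks, Cuffdiff and the build dm3 are named in the submitters' processing notes. Their versions and settings, and the gene annotation, were not found in the labels or headers. The FPKM values, the log2 fold change, the test statistic (a score), the p-value and the q-value were deposited by the authors in 3 Cuffdiff tables, 1 per comparison, each scaled on its own. Control values differed 1.03 times between tables as a median, so each comparison uses its own table. The smallest deposited p-value was 5e-05. Depth and values per sample are unknown, so no interval, replicate spread or outlier check could be given.

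All 92 members were matched by CG number to RefSeq locus tags (Release 6 names). The files' coordinates were taken as counted from 0 and are printed counted from 1: of 7013 loci of 1 gene and 1 transcript, 631 equalled the RefSeq length that way and 110 the other way. Calls are transcripts of status OK with q of at most 0.05. The p under 0.05 counts are unadjusted. Changes are log2((FPKM + 1)/(FPKM + 1)) of gene sums, and the expression minimum is a mean of 10 FPKM of both groups. The members, lists and naming rule were chosen with earlier results of these data known. The rule named members of extreme level or change, low p or shifted transcript share, and paralogues, stalk genes, RpS3A, RpL18 and RpS6. The core class and the position groups were set after the values were seen. The adjustment was tested on simulated data. Alternatives were other thresholds, pseudocounts of 0.1 and 5, filters, centring, rescaling to the same total and values from the other tables. Calculations ran in Python 3.11.15 with pandas 2.3.3 and numpy 2.4.6, rank correlations in scipy 1.17.1, and plots in matplotlib 3.10.9. The single values of 1 member are not reported here, while counts and medians over the members include it.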

Additional observations from a re-analysis of the deposited data

How the results depend on the processing

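The count of called member transcripts depended on the rule. In control against ablation the 1 call became 0 at q of at most 0.01 and 0 among transcripts with at least 1 FPKM in both groups, which leaves out RpS3A RB by construction, and 3 at an unadjusted p under 0.05. In control against activation the 0 became 2 at q of at most 0.1 and 10 at an unadjusted p under 0.05. In activation against ablation it became 6 at an unadjusted p under 0.05 and 1, RpL39 RA, with normal p-values from the statistic. The deposited p-values do not follow such normal scores, so no call is drawn from them. RpL41 was also left out of the member sum but kept in the total. The difference in the share of all FPKM then moved from 0.177 to -1.74 percentage points in ablation and from 0.142 to -0.866 in activation. The other 45 of 54 values of these call counts, of the median changes and of the shares stayed within 1.5 times the count, 0.1 log2 or 1 percentage point. Call counts were compared by number and not by name. In control against ablation the count stayed at 1 with normal p-values, but RpL39 RA took the place of RpS3A RB, which has no statistic. Among single genes RpS10a (from -8.39 to -2.94 in ablation) and RpS5b moved with the pseudocount. The split of core members moved more: in activation against ablation 19 higher became 33 when both groups were rescaled to the same total. In control against activation 37 higher became 30 when centred on the median of genes with a mean of at least 1 FPKM, which was 0.09. No paired analysis was possible because the tables hold 1 value per group, and no sample could be left out for the same reason. The depth behind low members such as RpS10a is unknown.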
